A study of Mus musculus with 47 samples.

Results

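Genes of protein folding and stress in the endoplasmic reticulum (ER) were read across the small intestine of germ-free and colonised mice. The set is a list of 35 gene symbols, all found among the 38087 genes of the deposited count table. It holds 11 chaperones and co-chaperones, 5 enzymes and retention factors of disulfide bond formation, 4 stress sensors and 4 transcription regulators with their direct partners. It also holds 7 genes of ER-associated degradation. The last 4 encode subunits of the channel that admits new proteins (Sec61a1 and Sec61b) or of the complex associated with it (Ssr1 and Ssr2). The mice were C57BL/6j males, 15 to 16 weeks old and fed ad libitum, that were either germ-free (GF) or conventional raised (convR), and libraries were made from their duodenum and ileum. Tissue was taken every 4 h at zeitgeber times (ZT) 2, 6, 10, 14, 18 and 22. Duodenum gave 12 convR and 12 GF libraries and ileum 12 convR and 11 GF libraries, 2 a time except GF ileum at ZT2 with 1. The labels do not say which libraries come from separate mice, so each p-value measures the spread between these samples only.

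Proteins bound for secretion or membranes enter the ER through the Sec61 channel, are folded there by chaperones and protein disulfide isomerases, and are sent to the proteasome by ER-associated degradation when folding fails. Unfolded protein is sensed by IRE1 (Ern1, and Ern2 in mucus-forming epithelium), PERK (Eif2ak3) and ATF6. IRE1 splices Xbp1 messenger RNA, PERK raises Atf4 translation with Ddit3 and Trib3 downstream, and cleaved ATF6 together with XBP1 drives chaperone genes. Antibody-secreting plasma cells depend on this programme, as do the Paneth and goblet cells of the gut epithelium.

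Factors of the ATF6 and XBP1 arms bind the ER stress response element (ERSE), which is CCAAT and CCACG with 9 bases of any kind between them, and sequences around it are shown because 9 members carry it. The 250 bases before the transcription start were searched on both strands in RefSeq promoters (GRCm38.p6). An entry was found for 28 of the 35 members. ERSE stood in 9 of these 28 (Hspa5, Hsp90b1, Calr, Canx, Creld2, Dnajc3, Pdia6, Derl3 and Syvn1) against 0.113% of all 32851 windows of that length. The shorter ERSE-II, ATTGG and CCACG with 1 base between them, stood in Herpud1 alone among members (0.0304% of all windows), as did the amino acid response motif TGATGNAA (3.45%), and the XBP1 motif TGACGTGG in 0 members (0.563%). The motifs did not overlap in these windows. No entry was held for Hyou1, Manf, Ern2, Atf6, Derl1, Sec61a1 or Ssr2. The windows are chr2:34771840-34772089 (plus strand) for Hspa5, chr10:86705445-86705694 (minus strand) for Hsp90b1, chr15:88819396-88819645 (plus strand) for Creld2, chr12:17266339-17266588 (plus strand) for Pdia6, chr10:75893148-75893397 (plus strand) for Derl3 and chr8:94386179-94386428 (plus strand) for Herpud1. Each is read 5′ to 3′ on the strand of its gene, and capitals mark ERSE on either strand (2 copies in Hsp90b1) or, in Herpud1, the amino acid response motif followed by ERSE-II. A match describes the letters only and is not evidence of binding.
Hspa5: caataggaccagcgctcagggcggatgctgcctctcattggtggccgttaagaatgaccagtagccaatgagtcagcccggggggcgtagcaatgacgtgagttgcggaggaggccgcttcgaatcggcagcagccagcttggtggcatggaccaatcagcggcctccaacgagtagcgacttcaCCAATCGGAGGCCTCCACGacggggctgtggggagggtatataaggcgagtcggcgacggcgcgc
Hsp90b1: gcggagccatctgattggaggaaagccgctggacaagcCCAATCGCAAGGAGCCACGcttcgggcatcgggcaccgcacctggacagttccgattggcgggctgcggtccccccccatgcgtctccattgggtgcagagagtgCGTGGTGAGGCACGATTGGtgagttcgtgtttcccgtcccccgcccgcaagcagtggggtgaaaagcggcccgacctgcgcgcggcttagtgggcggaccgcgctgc
Creld2: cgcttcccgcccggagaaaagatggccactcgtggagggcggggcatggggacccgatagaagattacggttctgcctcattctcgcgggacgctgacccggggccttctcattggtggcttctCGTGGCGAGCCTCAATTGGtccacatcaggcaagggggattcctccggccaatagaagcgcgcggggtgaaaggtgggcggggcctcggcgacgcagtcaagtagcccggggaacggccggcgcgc
Pdia6: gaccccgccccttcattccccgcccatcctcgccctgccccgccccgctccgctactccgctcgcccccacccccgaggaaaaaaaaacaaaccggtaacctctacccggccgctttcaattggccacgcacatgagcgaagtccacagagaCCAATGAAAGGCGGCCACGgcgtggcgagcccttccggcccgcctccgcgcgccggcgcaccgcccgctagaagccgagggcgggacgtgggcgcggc
Derl3: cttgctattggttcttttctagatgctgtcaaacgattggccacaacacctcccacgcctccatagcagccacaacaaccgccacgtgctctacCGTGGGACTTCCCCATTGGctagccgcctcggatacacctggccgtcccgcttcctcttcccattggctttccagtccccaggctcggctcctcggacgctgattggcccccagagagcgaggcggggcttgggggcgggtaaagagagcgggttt
Herpud1: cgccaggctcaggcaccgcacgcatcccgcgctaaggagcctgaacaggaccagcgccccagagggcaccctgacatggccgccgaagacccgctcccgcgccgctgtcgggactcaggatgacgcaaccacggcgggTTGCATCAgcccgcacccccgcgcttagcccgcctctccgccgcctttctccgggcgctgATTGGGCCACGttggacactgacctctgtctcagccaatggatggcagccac

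Total counts ran from 22.5 M to 41.9 M a library (median 31.9 M), and pairs of libraries of 1 group and time differed beyond counting noise (chi-square per degree of freedom 18.4 to 159 over 23 pairs). Fabp6, the ileal bile acid binding protein, was at or under 2.41 CPM (counts per M of the library total) in every duodenum library, and under 1000 CPM in 2 of 23 ileum libraries (206 and 599.8 CPM). Libraries that stood apart numbered 10 of 24 in duodenum and these 2 in ileum. In duodenum they carried pancreas acinar or stomach transcripts or an unusual scaling factor: convR at ZT2 replicate 2, ZT6 both, ZT14 both, ZT18 replicate 2 and ZT22 replicate 2, and GF at ZT6 replicate 1 and ZT22 both. In ileum they were convR ZT6 replicate 2 and GF ZT22 replicate 2. Without them duodenum kept both groups at ZT2, ZT10 and ZT18 only. Duodenum changes given below without these libraries thus rest on fewer times, and the part of the lost times was not tested. Levels below are CPM after TMM scaling (trimmed mean of M values), changes are log2 with the standard error (SE), and a call means an adjusted p under 0.05 with edgeR's quasi-likelihood test over all genes.

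In duodenum, 24 of the 35 members differed between GF and convR, 20 of them lower and 4 higher in GF. Of all 17986 genes tested there, 46.3% were called, 23.8% lower and 22.5% higher, and the members' median change was -0.22 against -0.01 for all genes. In ileum, 20 members were called, 16 lower and 4 higher, where 42% of all 18082 genes tested were called, 22.4% lower and 19.5% higher. The members' median there was -0.12 against 0.01. The share of members lower in GF was thus above the background in both tissues, and the share higher was below it. All 35 passed the filter on low counts in both tissues. The same direction was called in both tissues for 16 members, 14 lower and 2 higher, and no member was called in opposite directions. Another 8 were called in duodenum alone, 4 in ileum alone and 7 in neither. A lower level in this bulk tissue can mean fewer cells of a type or less RNA per cell, which cannot be told apart.

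**Figure D1:**
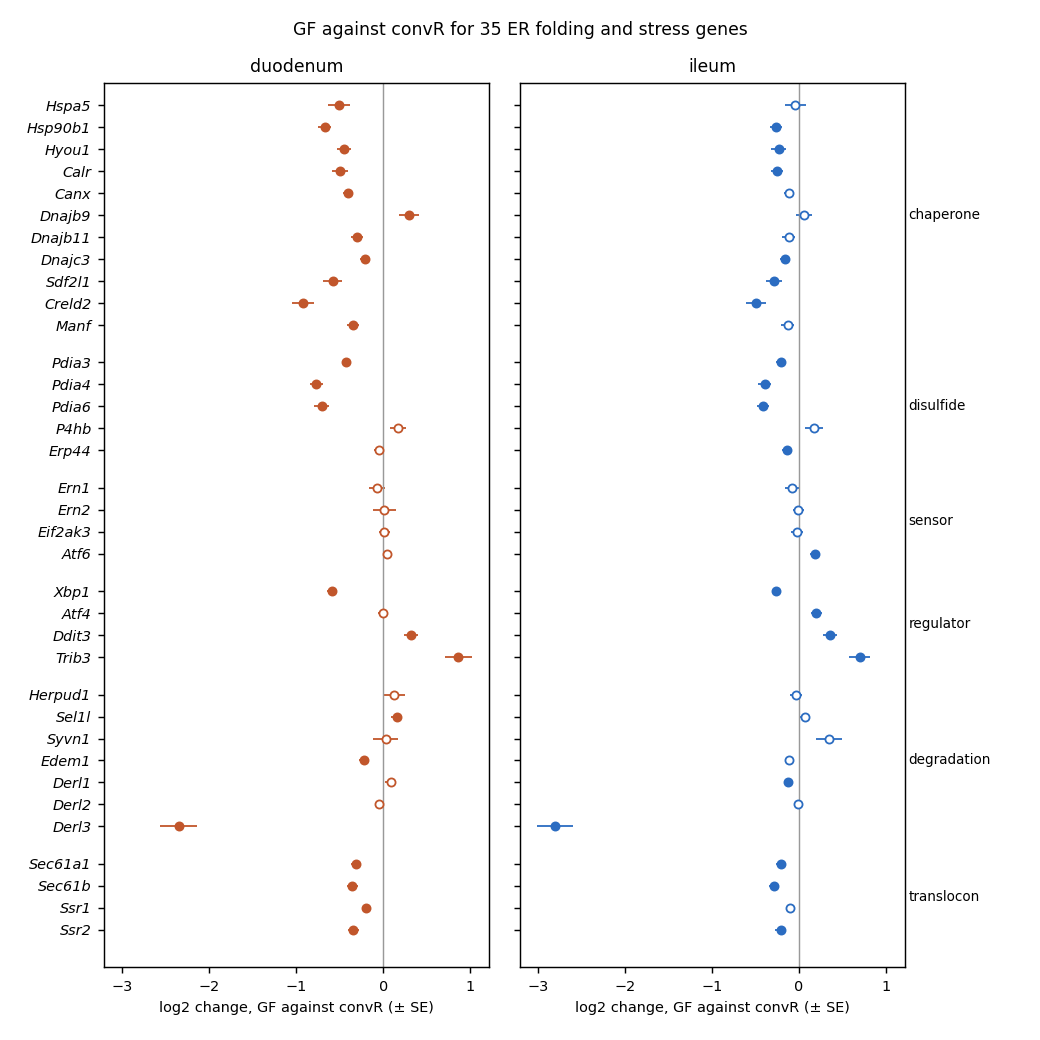
Log2 change of each member in GF against convR (x axis, bars are SE) in duodenum and ileum, ordered by role; filled points passed the adjusted p threshold. Derl3 stands far to the left at -2.35 in duodenum and -2.80 in ileum, Trib3 is the highest at 0.86 and 0.70, and the sensors lie near 0.

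Of the 11 chaperones and co-chaperones, 10 fell and 1 rose in GF duodenum, and 6 fell in ileum. Hsp90b1, the ER-resident HSP90 (GRP94), ranged over 502 to 846 CPM (median 605) in convR duodenum and 308 to 463 CPM (median 399.7) in GF. In ileum it ranged over 501 to 982 CPM (median 669.9) in convR and 494 to 665 CPM (median 585) in GF. Every GF duodenum library was below every convR one, while the ileum groups overlapped. Its change was -0.67 ± 0.07 (adjusted p = 1.9e-07) in duodenum and -0.27 ± 0.07 (adjusted p = 0.00476) in ileum. Non-overlap of that kind, with GF below, was found for 6 members in duodenum (Hsp90b1, Canx, Pdia3, Pdia4, Xbp1 and Derl3) against 2.07% of all genes. In ileum it was found for Derl3 alone against 4.49%, and no member lay wholly above (1.6% and 1.52% of all genes).

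Creld2, a secreted ER stress protein, had the largest change among the chaperone group. Its levels were 24.9 to 73.6 CPM (median 38.1) in convR duodenum and 16.8 to 29.7 CPM (median 21.7) in GF. The ileum values were 23.6 to 84.5 CPM (median 33.8) and 19.9 to 36.1 CPM (median 30.6). It changed by -0.92 ± 0.12 (adjusted p = 4.38e-06) in duodenum and -0.50 ± 0.12 (adjusted p = 0.00173) in ileum, with groups that overlapped in both. Hspa5, the HSP70 of the ER (BiP) and main regulator of the 3 sensors, lay at 331 to 888 CPM (median 671) in convR duodenum and 309.9 to 549 CPM (median 432) in GF. It lay at 436 to 1271 CPM (median 596) in convR ileum and 522 to 765 CPM (median 627) in GF. Hspa5 changed by -0.50 ± 0.12 (adjusted p = 0.00221) in duodenum and -0.04 ± 0.12 (adjusted p = 0.809) in ileum. The convR libraries of both tissues were widely spread and reached both below and above the GF range in ileum.

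Calnexin (Canx), the membrane lectin that holds new glycoproteins, was at 578 to 792 CPM (median 635) in convR duodenum and 419.9 to 569.9 CPM (median 483) in GF, without overlap. In ileum it was at 784 to 1104 CPM (median 1002) and 842 to 967 CPM (median 897), with overlap. The change was -0.41 ± 0.06 (adjusted p = 7.54e-06) and -0.12 ± 0.05 (adjusted p = 0.063) in the same order. Its soluble counterpart Calr fell in both tissues, with changes of -0.49 ± 0.09 and -0.25 ± 0.06, as did Hyou1, a nucleotide exchange factor for BiP (-0.45 ± 0.08 and -0.23 ± 0.08), and the co-chaperone Dnajc3 (-0.21 ± 0.06 and -0.17 ± 0.05). Dnajb11 and the secreted factor Manf fell in duodenum (-0.30 ± 0.07 and -0.34 ± 0.07) and missed the threshold in ileum (-0.12 ± 0.07 and -0.13 ± 0.07). The ileum call of Hyou1 was lost in 8 of 23 fits that left out 1 library, with adjusted p up to 0.0906, and without the libraries that stood apart (-0.23, adjusted p = 0.0542).

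Sdf2l1, a partner of the BiP cycle, ranged over 20.1 to 45.7 CPM (median 28.8) in convR duodenum and 13.6 to 28.1 CPM (median 18.9) in GF. In ileum it ranged over 20.3 to 50.2 CPM (median 32.6) and 20.1 to 34.4 CPM (median 26.6). The groups overlapped in both tissues, and the changes were -0.58 ± 0.11 (adjusted p = 0.00019) and -0.29 ± 0.09 (adjusted p = 0.0195). The ileum call went to an adjusted p of 0.062 without GF ileum ZT2 replicate 2, the single library of that time, and to 0.0562 without the libraries that stood apart (-0.26). Dnajb9, the co-chaperone that restrains IRE1, was the exception of the group. It spanned 21.4 to 59.3 CPM (median 47.1) in convR duodenum and 44.2 to 74.2 CPM (median 54.5) in GF, and 35.8 to 76.9 CPM (median 48.8) and 38.9 to 67.9 CPM (median 47.5) in ileum. Its rise in duodenum was 0.30 ± 0.11 (adjusted p = 0.0364), against 0.06 ± 0.09 (adjusted p = 0.661) in ileum. The duodenum call was lost in 9 of 24 fits without 1 library (adjusted p up to 0.0633). The change was 0.11 (adjusted p = 0.246) without the libraries that stood apart, a fit that does not compare the groups at ZT6, ZT14 or ZT22.

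Among the 5 disulfide genes, 3 fell in GF duodenum and 4 in ileum. Pdia4 (ERp72) was at 120.5 to 204 CPM (median 151) in convR duodenum and 70.8 to 114 CPM (median 91.2) in GF, without overlap. In ileum it was at 115 to 243 CPM (median 154) and 99.2 to 139 CPM (median 124), with overlap. It fell in both, at -0.77 ± 0.08 (adjusted p = 7.43e-08) and -0.40 ± 0.08 (adjusted p = 0.000289). Pdia6, another isomerase and an attenuator of IRE1, was at 104 to 193 CPM (median 149) and 65.3 to 130.4 CPM (median 90.9) in convR and GF duodenum. Its ileum values were 115 to 229 CPM (median 179) and 97.7 to 156 CPM (median 138), and the groups overlapped in both tissues. Its changes were -0.71 ± 0.09 (adjusted p = 1.08e-06) and -0.41 ± 0.07 (adjusted p = 0.00012). Pdia3 (ERp57), which serves the calnexin cycle, was at 330.3 to 462 CPM (median 389) and 263 to 319.9 CPM (median 287) in duodenum, without overlap. In ileum it was at 364 to 512 CPM (median 445) and 345 to 417 CPM (median 388), with overlap, and the changes were -0.43 ± 0.05 (adjusted p = 1.82e-06) and -0.21 ± 0.05 (adjusted p = 0.002).

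The other disulfide genes did not share this fall. P4hb, an isomerase and also a subunit of the lipid-loading protein MTP, was the highest member per length, at 895 ± 154 CPM per kb of exon (SD, n = 12) in convR duodenum and 1005 ± 89.5 (n = 12) in GF. Its change was 0.17 ± 0.09 (adjusted p = 0.128) in duodenum and 0.17 ± 0.10 (adjusted p = 0.193) in ileum, neither called. Erp44, which returns escaped ER enzymes from the Golgi, changed by -0.05 ± 0.05 (adjusted p = 0.426) and -0.14 ± 0.05 (adjusted p = 0.0369), and its ileum call was lost in 13 of 23 fits without 1 library (adjusted p up to 0.0909).

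All 4 members of the translocation channel and its associated complex fell in GF duodenum and 3 in ileum. Sec61b fell, with changes of -0.35 ± 0.06 in duodenum and -0.29 ± 0.06 in ileum, Sec61a1, the pore, of -0.31 ± 0.05 and -0.21 ± 0.05, and Ssr2 of the translocon-associated complex of -0.34 ± 0.06 and -0.21 ± 0.06. Ssr1, of the same complex, was at 178 to 239 CPM (median 213) and 168 to 197 CPM (median 186) in convR and GF duodenum, and 190.4 to 258 CPM (median 219) and 185 to 222 CPM (median 204) in ileum. The groups overlapped, with a change of -0.19 ± 0.05 (adjusted p = 0.00385) in duodenum and -0.10 ± 0.05 (adjusted p = 0.0898) in ileum. These 4 changes were alike in size, between -0.35 and -0.19 in duodenum.

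The sensors were not called in duodenum, and 1 of 4 was called in ileum. Ern1 (IRE1 alpha) was at 38.6 to 83.4 CPM (median 59.7) and 41.4 to 74.6 CPM (median 55.7) in convR and GF duodenum and 49.6 to 84.04 CPM (median 60.6) and 48.3 to 75.2 CPM (median 59.6) in ileum. Its changes were -0.07 ± 0.09 (adjusted p = 0.547) and -0.08 ± 0.08 (adjusted p = 0.434). Ern2 (IRE1 beta), the form of mucus-producing epithelium, was at 11.4 to 34.9 CPM (median 13.3) and 11.7 to 20.2 CPM (median 15.5) in duodenum and 23.6 to 38.7 CPM (median 31.2) and 25.9 to 37.3 CPM (median 31.2) in ileum. It changed by 0.01 ± 0.14 (adjusted p = 0.95) and -0.01 ± 0.06 (adjusted p = 0.939). Without the libraries that stood apart Ern2 was higher in GF duodenum by 0.32 (adjusted p = 0.0363). Eif2ak3 (PERK) was at 36.5 to 58.5 CPM (median 45.9) and 36.3 to 58.9 CPM (median 48.8) in duodenum and 47.1 to 71.04 CPM (median 60.1) and 48.1 to 66.96 CPM (median 57.6) in ileum, with changes of 0.01 ± 0.07 (adjusted p = 0.884) and -0.02 ± 0.07 (adjusted p = 0.83). Atf6 was at 73.7 to 86.1 CPM (median 81.2) and 70.9 to 95.8 CPM (median 81.1) in duodenum and 94.7 to 126 CPM (median 106) and 98.9 to 145 CPM (median 124) in ileum. It rose in GF ileum by 0.19 ± 0.06 (adjusted p = 0.012), against 0.04 ± 0.05 (adjusted p = 0.518) in duodenum. Each sensor's GF and convR ranges overlapped in both tissues.

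The regulators moved in both directions. In GF, Xbp1 was lower and Trib3 and Ddit3 were higher in both tissues, and Atf4 was higher in ileum and not called in duodenum. Xbp1, whose spliced form drives ER expansion in secretory cells, was at 222 to 298 CPM (median 255) in convR duodenum and 149 to 191 CPM (median 173) in GF, without overlap. In ileum it was at 175 to 257 CPM (median 217) and 153 to 187 CPM (median 179), with overlap. The change was -0.59 ± 0.06 (adjusted p = 1.16e-07) and -0.26 ± 0.05 (adjusted p = 0.000249), over exon counts that do not separate the spliced from the unspliced form. Trib3, a pseudokinase induced through Atf4 and Ddit3, was at 2.25 to 9.38 CPM (median 4.52) in convR duodenum and 3.38 to 15.1 CPM (median 8.55) in GF. In ileum it was at 2.58 to 7.03 CPM (median 3.93) and 4.66 to 11.2 CPM (median 7.59), and both tissues overlapped. Trib3 rose by 0.86 ± 0.15 (adjusted p = 8.5e-05) and 0.70 ± 0.12 (adjusted p = 8.04e-05). Ddit3 (CHOP), a factor of prolonged stress, was at 5.74 to 13.2 CPM (median 11.2) and 10.5 to 17.1 CPM (median 12.8) in convR and GF duodenum and 8.32 to 15.2 CPM (median 11.1) and 11.1 to 17.9 CPM (median 14.1) in ileum, again with overlap. It rose by 0.32 ± 0.08 (adjusted p = 0.00175) and 0.36 ± 0.08 (adjusted p = 0.00106). Without the libraries that stood apart the duodenum value of Ddit3 was 0.22 (adjusted p = 0.0701). Atf4 was at 101 to 157 CPM (median 135) and 112 to 151 CPM (median 135) in duodenum and 122 to 174 CPM (median 151) and 152 to 204 CPM (median 174) in ileum. It rose in ileum by 0.20 ± 0.06 (adjusted p = 0.015), and its change in duodenum was 0.00 ± 0.06 (adjusted p = 0.98).

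In the degradation group, 2 of 7 fell and 1 rose in GF duodenum, and 2 fell in ileum. Derl3, a derlin of the retrotranslocation channel that is abundant in secretory cells, changed more than any other member. It was at 4.63 to 11.2 CPM (median 7.79) in convR duodenum and 0.693 to 4.205 CPM (median 1.23) in GF, and at 2.33 to 6.82 CPM (median 3.83) in convR ileum and 0.245 to 1.09 CPM (median 0.592) in GF. No GF library reached the lowest convR library of its tissue. In ileum Derl3 passed the filter on low counts only with the convR libraries, so the size of its change there rests on low GF counts. The change of Derl3 was -2.35 ± 0.21 (adjusted p = 2.73e-08) in duodenum and -2.80 ± 0.21 (adjusted p = 1.52e-09) in ileum. The 2 highest GF duodenum libraries, ZT6 replicate 1 and ZT22 replicate 1, both stood apart, and without all such libraries the changes were -2.66 (adjusted p = 7.62e-05) and -2.69 (adjusted p = 2.34e-08). Its relatives behaved otherwise: Derl2 changed by -0.05 ± 0.04 and -0.01 ± 0.05, neither called. Derl1 was at 112 to 162 CPM (median 134) and 125 to 179 CPM (median 141) in convR and GF duodenum and 101 to 118 CPM (median 109.8) and 90.7 to 112 CPM (median 102) in ileum, with overlap, and changed by 0.08 ± 0.06 (adjusted p = 0.261) and -0.12 ± 0.04 (adjusted p = 0.0114).

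Edem1, which marks misfolded glycoproteins, changed by -0.22 ± 0.06 (adjusted p = 0.00234) in duodenum and -0.11 ± 0.05 (adjusted p = 0.0506) in ileum. Of the ubiquitin ligase complex, Syvn1 (HRD1) changed by 0.03 ± 0.14 (adjusted p = 0.895) and 0.34 ± 0.15 (adjusted p = 0.0792), neither called, and its adaptor Sel1l by 0.15 ± 0.06 (adjusted p = 0.0457) and 0.07 ± 0.06 (adjusted p = 0.362). The Sel1l call in duodenum was lost in 16 of 24 fits without 1 library (adjusted p up to 0.0996) and fell to 0.07 (adjusted p = 0.59) without those that stood apart. Herpud1, a stress-induced scaffold of that complex, was at 81.9 to 191 CPM (median 119) and 93.7 to 234 CPM (median 132) in convR and GF duodenum and 68.1 to 148 CPM (median 105) and 67.99 to 179 CPM (median 93.3) in ileum. Its ranges overlapped, with changes of 0.13 ± 0.13 (adjusted p = 0.438) and -0.04 ± 0.07 (adjusted p = 0.721).

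Members that carry ERSE were called lower in GF in 8 of 9 cases in duodenum, all but Syvn1, and in 6 of 9 in ileum, all but Syvn1, Hspa5 and Canx. The 19 members with an entry and no ERSE gave 8 lower and 4 higher in duodenum, and 6 lower and 3 higher in ileum. Of the 26 other genes with ERSE, 8 were testable in duodenum (3 lower, 1 higher) and 10 in ileum (3 lower, 1 higher). The members were listed as ER stress genes, so these counts describe the list and were not tested.

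The GF change was called different between the tissues for 5 members, against 12.3% of all 19000 genes in that model. All 5 were less negative in ileum, a direction called for 4.58% of all genes, against 7.69% for the opposite one. The difference (ileum minus duodenum) was 0.33 ± 0.08 (adjusted p = 0.00376) for Xbp1, 0.41 ± 0.10 (adjusted p = 0.00489) for Hsp90b1, 0.29 ± 0.07 (adjusted p = 0.00613) for Canx, 0.38 ± 0.11 (adjusted p = 0.0194) for Pdia4 and 0.22 ± 0.07 (adjusted p = 0.0356) for Pdia3. Derl1 was next in rank and differed the other way, at -0.20 ± 0.07 (adjusted p = 0.0565). The count of 5 moved with the libraries used. It was 13 without those that stood apart, which added Hspa5 (0.86) and Creld2 (0.82) among others. That fit drew the duodenum change from ZT2, ZT10 and ZT18 only, where both groups kept libraries, and the ileum change from every time. The times used thus differ between the tissues there, and their part was not tested. The count was 10 without convR duodenum ZT6 replicate 1 and 8 without GF duodenum ZT6 replicate 1. The share of all genes called in these refits is not given here. Their counts do not tell a change among the members from a shift in all genes. Pdia3 was lost in 9 of 47 fits without 1 library (adjusted p up to 0.0595).

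Plasma cell transcripts fell steeply in GF tissue, and Derl3 was the only member whose change was as large. The 6 markers (Jchain, Mzb1, Tnfrsf17, Pou2af1, Igha and Eaf2) fell in both tissues, with changes of -3.07 to -1.88 (median -2.81) in duodenum and -4.02 to -1.87 (median -3.07) in ileum. Their summed level ran from 5421 to 11196 CPM in convR duodenum and 510.1 to 1702 in GF, and from 1983 to 5724 in convR ileum and 144 to 375 in GF. Derl3, at -2.35 and -2.80, lay within the range of these markers in each tissue. In ileum it also lay within the range of the T cell markers (-3.79 to -1.72), so the match there is not particular to plasma cell markers. In duodenum the T cell markers changed less (-2.07 to -0.55). The other 34 members changed by less than any plasma cell marker in each tissue.

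The mean log2(CPM + 0.5) of the 6 markers gave each library a plasma cell score, at 5.91 and 3.45 on average in convR and GF duodenum and 5.07 and 2.45 in ileum. The score of GF and convR libraries did not overlap in either tissue. A slope on that score was fitted with status and time as additive terms, so that the average difference between GF and convR does not carry it. Differences among libraries of 1 status and time enter the slope, and so do differences in time course between GF and convR. For Derl3 the slope was 0.80 ± 0.41 log2 per unit of score in duodenum (adjusted p = 0.866) and 1.13 ± 0.25 in ileum (adjusted p = 0.0691). No member passed edgeR's threshold in either tissue, where 0.156% and 0.227% of all genes did, and 2 members in duodenum and 1 in ileum had an unadjusted p under 0.05, as did 5.72% and 6.76% of all genes. DESeq2 called 0 members in duodenum and 1 in ileum, Derl3 (adjusted p = 0.0183), and Derl3 in ileum also passed in edgeR without convR ileum ZT10 replicate 2 (adjusted p = 0.0209).

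The other 34 members had slopes between -0.36 and 0.71 in duodenum and between -0.21 and 0.17 in ileum. In duodenum the next members by p were Trib3 (0.71 ± 0.27, unadjusted p = 0.0153), Xbp1 (0.26 ± 0.11, 0.0354) and Dnajb9 (0.44 ± 0.22, 0.0635). Trib3 and Dnajb9 have positive slopes yet were higher in GF, where the score is lower. In ileum the next were Atf6 (-0.18 ± 0.10), Ssr1 (-0.14 ± 0.08) and Canx (-0.14 ± 0.09), all with adjusted p over 0.8. With the score added to the comparison of GF with convR, 0 members were called in either tissue, and 1 gene of all tested in duodenum and 2 in ileum. The score and status separate the same libraries, so their parts cannot be told apart in that model.

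**Figure D2:**
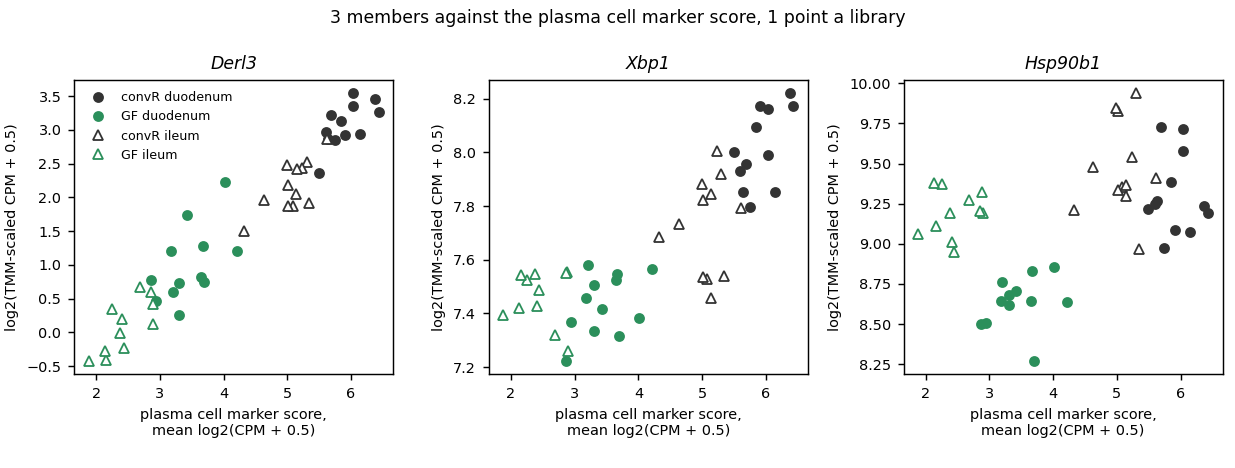
Level of Derl3, Xbp1 and Hsp90b1 as log2(TMM-scaled CPM + 0.5) against the plasma cell score (mean log2(CPM + 0.5) of 6 markers), 1 point a library; colour is status and shape is tissue. The score means are 5.91 and 3.45 in convR and GF duodenum and 5.07 and 2.45 in ileum, and Derl3 is higher in the convR libraries, which have the higher scores, while the convR points of Hsp90b1 overlap between the tissues.

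Transcripts of other cell types moved with status as well. Markers of Paneth cells, the antimicrobial secretory cells of the crypt, fell for 7 of 7 genes in both tissues (median -1.21 in duodenum and -0.93 in ileum). Their summed level was 2022 to 5199 CPM in convR duodenum and 1012 to 2761 in GF, and 12814 to 22339 in convR ileum and 6366 to 14021 in GF. With a Paneth marker score in the model, 7 members remained called in duodenum (Hsp90b1, Creld2, Pdia3, Pdia4, Pdia6, Xbp1 and Derl3) and 5 were called in ileum (P4hb, Atf4, Ddit3, Trib3 and Derl3). The score itself fell with GF status, and the share of all genes called in that model is not given here. A kept or lost call thus does not assign a member to a cell type. Of 8 goblet cell markers, 1 rose and 2 fell in each tissue. The 6 T cell markers fell in both tissues (median -0.89 in duodenum and -3.25 in ileum), as did the 6 macrophage markers (median -0.59 and -0.87). Of 10 enterocyte markers, 6 rose and 0 fell in GF duodenum (median 0.38) and 4 rose and 1 fell in ileum (median 0.28). Of 6 smooth muscle markers, 1 rose in GF duodenum (median -0.02) and 6 rose in ileum (median 0.38). Pancreas acinar markers summed to 4.95 to 3419 CPM in convR duodenum and 3.90 to 8494 in GF, and a score of them in the model left the duodenum count at 24. Which cells gave the RNA of the members was not tested.

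The highest mean level over the 6 times fell at ZT2 or ZT18 for 10 of 11 chaperones in convR duodenum, all but Dnajb9, and for 11 of 11 in convR ileum. These times were picked after the levels were seen, and the test of time called 0 members in either convR tissue. In convR duodenum the 2 libraries a time gave Hspa5 at 888 and 828 CPM at ZT2, 331 and 468 at ZT6, 593 and 723 at ZT10, 636 and 706 at ZT14, 779 and 711 at ZT18 and 394 and 504 at ZT22. In convR ileum the values in that order were 1271 and 999, 436 and 489, 438 and 578, 614 and 832, 938 and 946 and 472 and 536. ZT2 and ZT18 thus lay above ZT6 and ZT22 in both tissues. Duodenum and ileum libraries may come from the same mice, so the 2 tissues do not count as independent observations. Creld2 gave 73.6 and 51.5 CPM at ZT2, 24.9 and 33.1 at ZT6, 65.6 and 62.5 at ZT18 and 24.9 and 34.6 at ZT22 in convR duodenum. In convR ileum it gave 84.5 and 61.2, 23.6 and 31.7, 64.97 and 62.5 and 25.4 and 31.7 at those times. In GF tissue both genes stayed within a narrower span, Hspa5 at 310 to 549 CPM in duodenum and Creld2 at 16.8 to 29.7.

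The highest mean level fell at ZT2 or ZT18 in 24 of 35 members in convR duodenum and 26 in convR ileum, against 12 in GF duodenum and 13 in GF ileum. Of all genes tested, 28.8% in convR duodenum, 33.3% in convR ileum, 32.2% in GF duodenum and 36.4% in GF ileum had their highest mean at 1 of those times. The median range over the 6 times was 0.54 log2 for members and 0.42 for all genes in convR duodenum, and 0.51 against 0.33 in convR ileum. In GF it was 0.30 against 0.38 in duodenum and 0.27 against 0.32 in ileum. With time as a factor, edgeR's quasi-likelihood test called 0 members in convR ileum (lowest adjusted p 0.0651), while 16 had an unadjusted p under 0.05, as did 8.81% of all genes. In convR duodenum 0 were called (lowest adjusted p 0.0555) and 8 had an unadjusted p under 0.05 (10.1% of all genes). GF duodenum gave 0 called and 11 under 0.05 (15.5%), and GF ileum 1 called, Herpud1 (adjusted p = 0.0089), and 3 under 0.05 (5.38%). The shares of all genes called in these 4 tests were 0.0543%, 0.229%, 0.913% and 0.301% in the order given. DESeq2 was not run with time as a factor within a group. Without the libraries that stood apart, convR duodenum kept 5 libraries and none at ZT6 or ZT14, too few for this test to decide. The test then called 0 members in convR ileum and in GF duodenum, which kept no library at ZT22. Of all genes it called 0.024% and 0.921%, and 16 and 14 members had an unadjusted p under 0.05. In GF ileum it called Herpud1 alone (0.215% of all genes, adjusted p = 0.015).

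**Figure D3:**
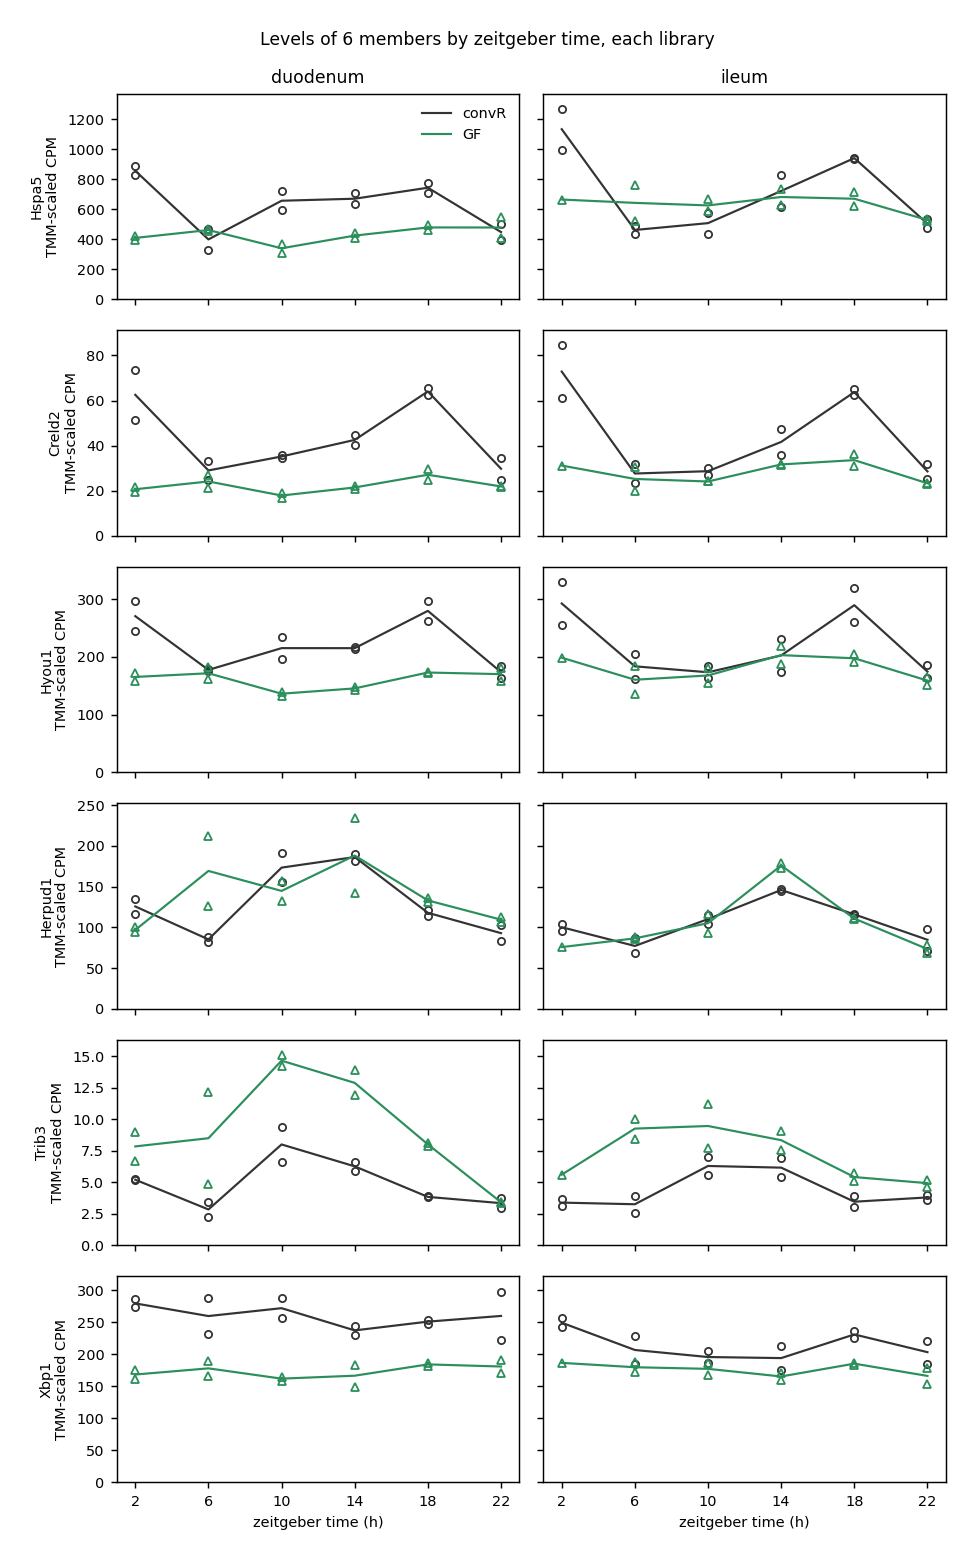
TMM-scaled CPM (y axis) of Hspa5, Creld2, Hyou1, Herpud1, Trib3 and Xbp1 against zeitgeber time in hours, 1 point a library with lines through the means. In convR, Hspa5, Creld2 and Hyou1 are high at ZT2 and ZT18 (Hspa5 at 858 CPM on average at ZT2 and 399.5 at ZT6 in duodenum) and their GF lines are flatter, while Trib3 has the wider range in GF (1.95 log2 against 1.34 in duodenum), as has Herpud1 in ileum (1.25 against 0.91).

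The difference between GF and convR was then tested at each time. In duodenum 12 members were called at ZT2, 6 at ZT6, 14 at ZT10, 11 at ZT14, 9 at ZT18 and 1 at ZT22. The share of all genes called at those times was 3.16%, 12.5%, 12.9%, 8.55%, 5.12% and 1.3%. In ileum the members called numbered 3, 2, 1, 1, 4 and 1, against 2%, 4.6%, 7.33%, 6.5%, 5.15% and 5.77% of all genes. ZT2 and ZT18 were picked after the levels were seen, so p-values at these times rest on the values that picked them. At ZT6 in duodenum Hspa5 was at 331 and 468 CPM in convR and 471 and 453 in GF. At ZT22 it was at 394 and 504 and at 409 and 549. Creld2 at ZT6 was at 24.9 and 33.1 CPM in convR and 27.2 and 21.1 in GF. At ZT22 Creld2 was at 24.9 and 34.6 and at 21.7 and 22.1. Creld2 differed by -1.59 ± 0.19 (adjusted p = 0.000643) at ZT2 and -1.25 ± 0.19 (adjusted p = 0.00222) at ZT18 in duodenum. In ileum it differed by -1.24 ± 0.26 (adjusted p = 0.024) and -0.94 ± 0.20 (adjusted p = 0.0126). Hspa5 differed by -1.06 ± 0.19 (adjusted p = 0.00655) at ZT2 in duodenum and -0.78 ± 0.25 (adjusted p = 0.113) in ileum.

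Without the libraries that stood apart, duodenum kept libraries of both groups at ZT2, ZT10 and ZT18 only, with 1 convR library at ZT2 and at ZT18. Members called there numbered 10, 20 and 8, against 1.38%, 18.2% and 2.32% of all genes, and 10, 19 and 8 of them were lower in GF. At the picked times Creld2 differed by -1.83 ± 0.14 at ZT2 and -1.29 ± 0.14 at ZT18 in that fit, and Hspa5 by -1.12 ± 0.16 at ZT2. A time with a lone library assumes that it varies like the others of its tissue. In ileum the counts from ZT2 to ZT22 were 2, 1, 1, 1, 4 and 1 without those libraries, against 2.05%, 2.1%, 7.83%, 6.78%, 5.47% and 0.879% of all genes.

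At ZT6 in duodenum several members were instead higher in GF. Trib3 was higher by 1.55 ± 0.31 (adjusted p = 0.0051), Dnajb9 by 1.002 ± 0.23 (adjusted p = 0.0111), Herpud1 by 0.98 ± 0.23 (adjusted p = 0.0112) and Sel1l by 0.43 ± 0.13 (adjusted p = 0.0426). Both convR libraries of that time and 1 of the GF libraries stood apart, so no convR library is left at ZT6 without them. Trib3 also rose at ZT6 in ileum, by 1.503 ± 0.23 (adjusted p = 0.00226), where 1 convR library stood apart, and by 1.82 ± 0.29 (adjusted p = 0.00951) without that library. The test of status by time as a factor called 0 members in either tissue with edgeR (0% of all genes, lowest adjusted p 0.583 and 1). Unadjusted p was under 0.05 for 9 members in duodenum (5.13% of all genes) and 5 in ileum (2.74%), so the difference in time course did not pass the threshold.

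**Figure D4:**
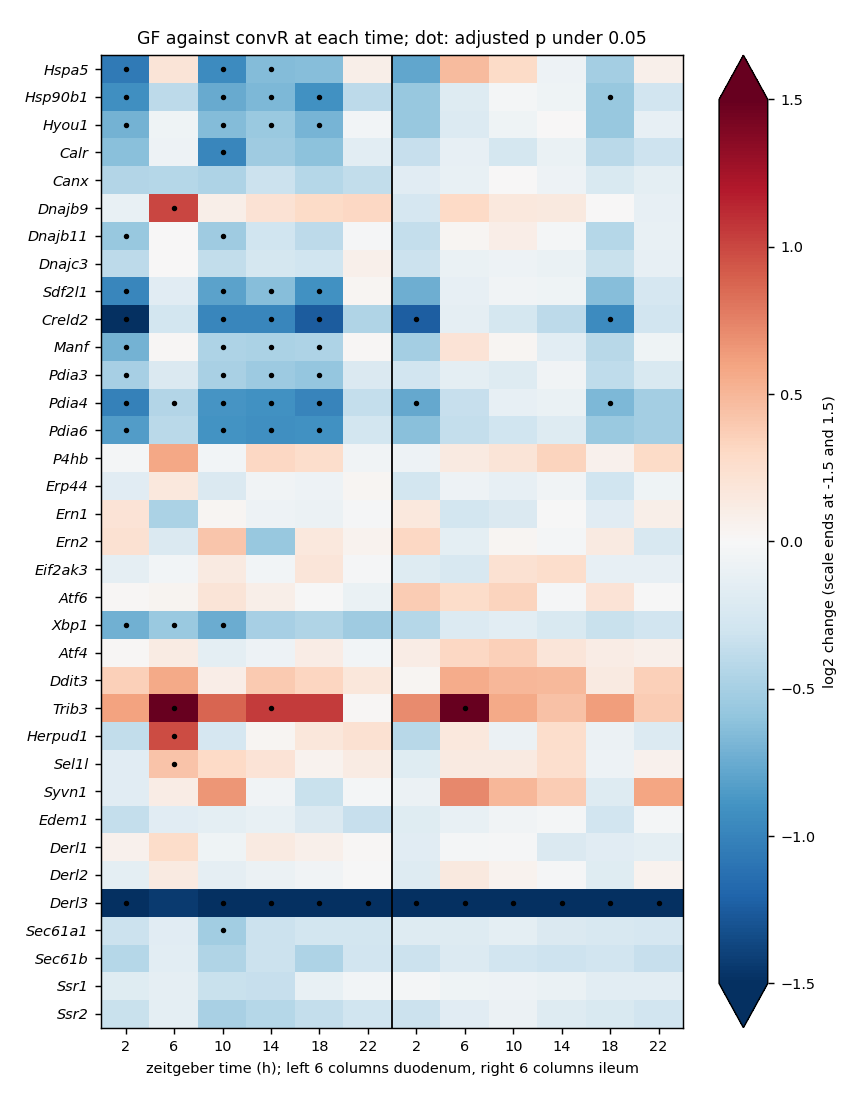
Log2 change of each member in GF against convR at each zeitgeber time (left 6 columns duodenum, right 6 ileum; colour scale ends at -1.5 and 1.5), with a dot where the adjusted p is under 0.05. Derl3 is dark in every column, and the chaperone and isomerase changes in duodenum are dotted at ZT2, ZT10, ZT14 and ZT18, with 12, 14, 11 and 9 members called.

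A 24 h cosine has 1 peak a day and cannot follow levels that dip at ZT22 between ZT18 and ZT2. It was fitted within each group as well. It called 0 of 35 members in convR duodenum (0.0301% of all genes), 0 in GF duodenum (2.68%) and 0 in convR ileum (0.133%) with edgeR, where 1, 8 and 6 members had an unadjusted p under 0.05, as did 11.1%, 16.8% and 8.74% of all genes. DESeq2 called 0, 2 (Ern1 and Trib3) and 0 in the same order. In GF ileum edgeR called 2 of the 34 members tested (1.39% of all genes); Derl3 was too low to test there. Trib3 had a peak-to-trough range of 1.06 log2 with a peak at ZT 9.45 (adjusted p = 0.00954), and Herpud1 1.19 log2 with a peak at ZT 13.7 (adjusted p = 0.0103). The levels of Herpud1 in GF ileum were 85.1 and 87.9 CPM at ZT6, 172 and 179 at ZT14 and 67.99 and 78.8 at ZT22. In convR ileum they were 68.1 and 86.3, 148 and 144 and 70.98 and 98.5, so ZT14 was high in both groups.

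Trib3 in GF ileum was at 10.04 and 8.47 CPM at ZT6, 7.73 and 11.2 at ZT10 and 4.66 and 5.21 at ZT22, and with time as a factor its adjusted p was 0.252. By smallest rhythm p the members were Herpud1, Trib3 and Derl3 in convR duodenum, Trib3, Ern1 and Sdf2l1 in GF duodenum, and Herpud1, Trib3 and Pdia6 in convR ileum. In GF duodenum the count was 5 without GF duodenum ZT6 replicate 1 (Sdf2l1, Pdia4, Pdia6, Trib3 and Herpud1), 1 without GF duodenum ZT2 replicate 1 (Trib3) and 1 without GF duodenum ZT22 replicate 2 (Ern1). The share of all genes called in those refits is not given here. The difference in rhythm between GF and convR was called for 0 members and 0% of all genes in either tissue by edgeR, with 0 members in duodenum and 1 in ileum under an unadjusted p of 0.05 (4.11% and 3.36% of all genes).

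Between the tissues, 17 members differed in convR (10 higher and 7 lower in ileum) and 29 in GF (23 higher and 6 lower), against 49.6% and 66.5% of all genes. Of all genes, 24.9% were higher and 24.8% lower in ileum in convR, and 33.2% higher and 33.4% lower in GF. The same direction was called in both for 16 members, 13 were called in GF only and 1 in convR only. That 1 was Xbp1, at -0.30 ± 0.06 (adjusted p = 0.000506) in convR and 0.01 ± 0.05 (adjusted p = 0.854) in GF. Ern2 was higher in ileum by 1.001 ± 0.13 (adjusted p = 1.72e-06) in convR and 0.999 ± 0.05 (adjusted p = 2.39e-13) in GF, and P4hb lower by -1.02 ± 0.12 (adjusted p = 2.91e-07) and -1.03 ± 0.07 (adjusted p = 1.78e-11). Goblet cell markers were higher in ileum for 7 of 8 genes in convR and 8 of 8 in GF, and their part in the Ern2 difference was not tested. Of the chaperones, Canx was higher in ileum by 0.58 ± 0.06 and 0.87 ± 0.05, and Hspa5 by 0.13 ± 0.09 (adjusted p = 0.255) in convR and 0.54 ± 0.08 (adjusted p = 3.75e-06) in GF. Derl3 was lower in ileum by -0.98 ± 0.12 and -1.47 ± 0.26, with 6 of 6 and 5 of 5 tested plasma cell markers. The 6 macrophage markers were lower in ileum in both groups as well.

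Of the other sensors, Atf6 was higher in ileum by 0.38 ± 0.05 in convR and 0.54 ± 0.05 in GF, and Eif2ak3 by 0.31 ± 0.07 and 0.27 ± 0.06. Herpud1 was lower by -0.28 ± 0.07 and -0.47 ± 0.10, as was Derl1 by -0.29 ± 0.06 and -0.50 ± 0.05. A block by replicate number removed an average offset between replicates 1 and 2 and did not pair libraries time by time. With that block in edgeR, Hsp90b1 (0.15, adjusted p = 0.0465) and Atf4 (0.14, adjusted p = 0.0304) were also called in convR. The main tests took the libraries of both tissues as independent. Without the libraries that stood apart the convR count was 11, and the share of all genes called in that fit is not given here. The GF call of Hyou1 (0.16 ± 0.07 (adjusted p = 0.0451)) was lost in 16 of 23 fits without 1 library, and the convR call of Derl2 (0.12 ± 0.04 (adjusted p = 0.0227)) in 3 of 24, those without convR duodenum ZT6 replicate 1, convR duodenum ZT2 replicate 2 or convR ileum ZT18 replicate 2 (adjusted p up to 0.0709).

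**Figure D5:**
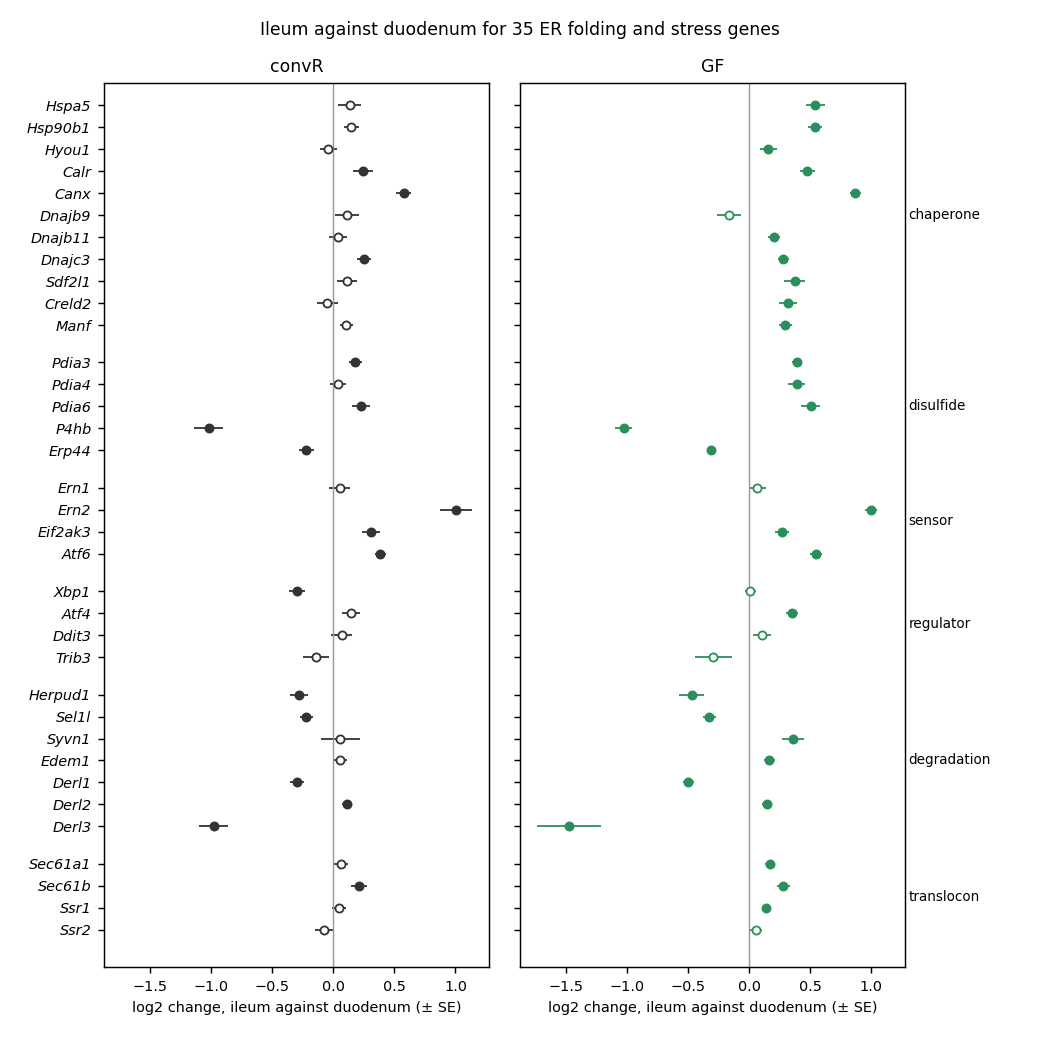
Log2 difference of each member between ileum and duodenum (x axis, bars are SE) in convR and in GF, ordered by role; filled points passed the adjusted p threshold. Ern2 lies farthest right at 1.001 and 0.999, P4hb lies at -1.02 and -1.03, and most chaperones lie to the right in GF with 10 of 11 called.

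Related genes outside the set were read from lists of the same pathway. Of all genes tested, 22.5% were higher and 23.8% lower in GF duodenum, and 19.5% higher and 22.4% lower in GF ileum. Of 10 genes of oligosaccharyl transfer, which adds sugar chains to new proteins, 9 fell in GF duodenum and 6 in ileum, with 0 rises. Krtcap2 changed by -0.52 ± 0.06 and -0.25 ± 0.07, Ddost by -0.39 ± 0.05 and -0.26 ± 0.06, and Rpn1 by -0.43 ± 0.06 and -0.26 ± 0.06. Of 17 other folding genes, 10 fell in each tissue and 0 rose, among them the isomerase Txndc5 (-0.78 ± 0.06 and -0.30 ± 0.04). The oxidase Ero1lb changed by 0.00 ± 0.09 in duodenum and -0.75 ± 0.09 in ileum. Of 14 tested genes of translocation and signal peptide cleavage, 9 fell and 1 rose in duodenum and 8 fell and 1 rose in ileum, with Sec11c, a catalytic subunit of signal peptidase, at -0.72 ± 0.06 and -0.43 ± 0.05.

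Lists of degradation and stress signalling showed no common direction. Of 13 other degradation genes, 4 rose and 2 fell in duodenum and 2 rose and 2 fell in ileum. Edem2 changed by -0.39 ± 0.05 and -0.24 ± 0.07. Of 18 other stress genes, 6 rose and 5 fell in duodenum and 3 rose and 4 fell in ileum. Eif2ak1, the haem-regulated kinase of the same translation factor as PERK, rose by 0.48 ± 0.07 and 0.33 ± 0.04. Wfs1 changed by 0.73 ± 0.11 in duodenum and 0.16 ± 0.09 in ileum, and Nupr1 by -0.48 ± 0.26 and -0.90 ± 0.11. Further genes of this list that ATF4 is known to induce, named after their values were seen, gave values in both directions. Asns, which makes asparagine, changed by -0.48 ± 0.08 and -0.26 ± 0.10, and Ppp1r15a, which reverses the PERK signal, by -0.41 ± 0.12 and -0.46 ± 0.09, both lower in both tissues. Atf3 changed by -0.20 ± 0.18 and -0.55 ± 0.21, called in ileum, and Chac1 by -0.75 ± 0.25 and -0.22 ± 0.36, called in duodenum. Sesn2 was higher in both, by 0.27 ± 0.08 and 0.27 ± 0.07.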

How the data were processed

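Total RNA was sequenced in 47 libraries of duodenum and ileum, from stranded libraries after removal of ribosomal RNA, per the labels' protocols. Reads were aligned with STAR 2.4.0i to mm10, per the submitters' processing notes. The deposited values are raw counts per gene, made by the authors from reads on its exons. How reads were counted, with which annotation and strand rule, is not given in the sources used here, so counts of overlapping genes are uncertain. Members and lists were chosen with earlier results of these data known. Counts were tested as deposited with edgeR 4.0.16 (R 4.3.3, limma 3.58.1), by quasi-likelihood with robust dispersion, TMM scaling, filterByExpr at a minimum count of 10, two-sided tests and Benjamini-Hochberg adjustment over all genes of a comparison. Models held ZT as a factor and status, status by tissue, or a 24 h cosine. DESeq2 1.42.0, library size alone, no filter, the replicate block, marker scores as covariates and leaving out each library were alternatives, and leaving out libraries that stood apart was added after seeing the data. Such a library had a TMM factor over 1.2, a mean of acinar or of stomach markers over 100 CPM, or, if from ileum, less than 1000 CPM of Fabp6. The model was checked on simulated counts. Figures and promoter searches used Python 3.11.15, pandas 2.3.3, numpy 2.4.6 and matplotlib 3.10.9.

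Members with levels in every group were chosen by rule: in each tissue the 6 largest called changes, the 6 smallest p for the tissue difference, the 4 smallest p for the slope in each tissue, the 3 smallest rhythm p in each group, and all sensors and regulators. Hspa5 was added for its role as the main sensor partner. Of other pathway lists, up to 3 genes with the smallest p were eligible. Equal replicate numbers were checked for pairing by correlating deviations from group means. Between duodenum and ileum of convR these were 0.228 to 0.556 at 6 of 6 times, and between the tissues in GF -0.05 to 0.14. Between convR and GF, which cannot share a mouse, they were -0.05 to 0.26 in duodenum and -0.05 to 0.34 in ileum. These ranges overlap that of the convR tissues, so the correlations do not settle which libraries share a mouse.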

Additional observations from a re-analysis of the deposited data

Results flagged for a closer look

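The GF change differed between ileum and duodenum by the test of the difference itself for 5 members, all less negative in ileum. The difference was 0.33 for Xbp1, 0.41 for Hsp90b1, 0.29 for Canx, 0.38 for Pdia4 and 0.22 for Pdia3 (log2, ileum minus duodenum). Of the duodenum libraries in that test, 10 of 24 stood apart. Without them and the 2 ileum libraries the values were 0.42, 0.67, 0.43, 0.62 and 0.37, each called. In that fit duodenum kept both groups at ZT2, ZT10 and ZT18 only and ileum at every time. The larger values cannot be told apart from this change of times. Acinar markers, which were high in some duodenum libraries, were near the floor in ileum (3.04 to 6.23 CPM summed). With an acinar marker score in the model the 5 values were 0.33, 0.37, 0.30, 0.33 and 0.22, each called, and Atf4 was called as well.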

How the results depend on the processing

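DESeq2 gave 24 members in duodenum and 20 in ileum for GF against convR, and 5 for the difference between tissues. Library size alone moved the median of all genes by -0.14 in duodenum and gave 2 higher and 22 lower there, against 4 and 20. For ileum against duodenum in GF it moved that median to 0.13. It also gave 11 members for the tissue difference of the GF change and 1 for the rhythm in GF duodenum. DESeq2 gave 2 for that rhythm (Ern1 and Trib3), as did leaving out the libraries that stood apart, and 1 for the slope in ileum. Leaving those libraries out gave 23 members in duodenum and 19 in ileum, 13 for the tissue difference of the GF change and 11 for ileum against duodenum in convR. Counts of members in this section stand without the share of all genes called in the same fit. They do not tell a change among the members from a shift in all genes. With ZT as a factor, 1 member was called in GF ileum in place of 2 by the cosine. In each of these the cause was not tested, except that leaving out libraries leaves fewer samples and, in duodenum, fewer times with both groups.

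The plasma cell score as a covariate gave 0 members in either tissue and in their difference, and the Paneth score gave 7, 5 and 0. Both scores separate GF from convR, and the plasma cell score without overlap. With the plasma cell score the estimate changed sign in duodenum for Xbp1 (0.0513), Edem1 (0.18), Sec61b (0.12) and Ssr2 (0.0039). It changed sign in ileum for Sdf2l1 (0.16), Atf6 (-0.30), Ddit3 (-0.0013) and Derl3 (0.12), and in the tissue difference for Canx (-0.12) and Xbp1 (-0.43). With the Paneth score it changed sign in ileum for Hyou1 (0.0528), Calr (0.12), Sdf2l1 (0.22), Erp44 (0.10), Atf6 (-0.0554), Derl1 (0.0014), Sec61a1 (0.0389) and Ssr2 (0.12). None of these estimates was called, and the cause was not tested.

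Leaving out 1 library at a time gave 22 to 24 members in duodenum and 17 to 22 in ileum, 4 to 10 for the tissue difference, 16 to 19 for the tissues in convR and 28 to 30 in GF. It gave 0 to 5 for the rhythm in GF duodenum, 2 to 2 in GF ileum, 0 to 1 for the slope in ileum and 0 to 0 for the slope in duodenum, the other rhythms and the rhythm differences. Where GF ileum at ZT2 has 1 library, leaving it out removes that time. The replicate block gave 24 members in duodenum and 24 in ileum (adding Canx, Syvn1, Edem1 and Ssr1). It gave 6 for the tissue difference (adding Derl1), 19 for the tissues in convR and 29 in GF. With the block the rhythm and slope counts were the same as without it. Depth limits Derl3 most: its lowest GF ileum library was at 0.245 CPM.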
